A study of Mus musculus with 7 samples.

Results

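Irf8 positive monocyte-primed progenitors are described here in single-cell RNA libraries of mouse bone marrow LSK cells, the lineage-negative cells sorted for surface Sca-1 and cKit. A cell counted as a member when it held at least 3 unique molecular identifiers (UMIs, 1 per captured mRNA molecule) of Irf8 and at least 3 UMIs summed over Csf1r, Ly86, F13a1 and Ccr2. It also had to hold at most 4 UMIs of Elane, none of Dntt, and at most 4 summed over H2-Aa, H2-Ab1 and H2-Eb1. These limits kept out granule-rich, lymphoid and MHC class II-rich cells, so the members were chosen by the measured counts of these genes. The gate found 563 members among 24430 kept cells, which is 2.3%. Of 36465 deposited barcodes, kept cells had 1000 UMIs and 500 detected genes or more, with no more than 10% of UMIs from mitochondrial genes.

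The study sorted LSK cells from flushed tibia and femur marrow of wild type mice and of full B4galt1 knockout mice. Libraries of mRNA 3′ ends (10X Genomics kit, version 2 per the labels) were made from 3 samples labelled knockout, genotype 129S1/C57Bl/6, B4-/-, and from 4 labelled WT, genotype 129S1/C57Bl/6. B4galt1 encodes a galactosyltransferase that adds galactose to sugar chains of glycoproteins. All groups shared the mixed strain background, the tissue and the sort. The labels give no age, sex, deleted exon or treatment. They do not say that each library came from a separate animal, so p-values measure the spread between libraries, which may be technical.

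Irf8 is a transcription factor that steers bone marrow progenitors towards monocytes and dendritic cells and away from neutrophils. It acts together with PU.1 (the product of Spi1) on composite DNA sites. Csf1r is the receptor for the growth factor M-CSF, and Ccr2 is the chemokine receptor that lets monocytes leave the marrow. Ly86 is a partner of the toll-like receptor relative Cd180, and F13a1 encodes a subunit of coagulation factor XIII made by monocytes. In marrow, cells that begin to express these genes still carry Mpo and Prtn3, the granule enzymes of early myeloid progenitors, together with the stem and progenitor receptors Kit and Flt3.

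The libraries fell into 2 sets by the opening 5 bases of their cell barcodes. Knockout 3 and WT 4 shared the same 399 openings (list B), whereas knockout 1, knockout 2 and WT 1 to 3 held 614 to 644 openings (list A) and overlapped with list B by a Jaccard index of at most 0.349. The labels name 1 kit version for all 7 libraries, and why the lists differ is not given in the sources used here. The label comparison of genes carries the barcode list as a term, and shares are also given within each list. Total UMIs per library ran from 14970791 to 89747946, and the median per member ran from 14117 (WT 4) to 19016 (WT 2), against 8046 to 11084 per kept cell. No member barcode recurred as a member of another library, and 2 recurred as another kept cell, among 160 kept barcodes found in more than 1 library. B4galt1 mRNA itself did not separate the labels in the members, at 52.1, 53.1 and 29.2 CPM (a gene's UMIs scaled to an equal total per library) in knockout 1, 2 and 3 and 45.1, 72.9, 83.0 and 23.6 CPM in WT 1 to 4. The log2 difference in B4galt1, knockout minus WT, was 0.03 ± 0.25 (SE). Where the probed 3′ end lies relative to the deleted part is not given in the sources used here, so this level does not check the labels, and the groups are called by their labels throughout.

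The values that chose the members are given first, as a description without a test. Irf8 stood at 575, 588 and 443 CPM in knockout 1, 2 and 3 and at 744, 514, 549 and 893 CPM in WT 1 to 4. The median member held 7 UMIs of Irf8, and the highest held 68. Ccr2 stood at 304, 397 and 272 CPM in the knockout-labelled libraries and at 121, 437, 313 and 249 CPM in WT 1 to 4, so the labels overlapped for this chemokine receptor. F13a1 was the most uneven of the gate genes across libraries, at 573, 1292 and 154 CPM against 994, 1395, 849 and 155 CPM. Both list B libraries had the lowest F13a1 levels.

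Ly86 lay between 95.3 CPM (knockout 3) and 197 CPM (WT 4), and Csf1r between 12.8 CPM (WT 3) and 89.5 CPM (WT 2). The M-CSF receptor transcript was thus present in every library at a low level. Elane, the neutrophil elastase gene that the gate held low, remained at 60.9, 56.2 and 48.0 CPM in knockout 1, 2 and 3. In WT 1 to 4 it stood at 43.0, 9.94, 19.1 and 40.5 CPM, so the labels did not overlap. At the edge of the gate, 94 members held exactly 3 UMIs of Irf8, and 121 cells that met every other limit held 2. For the sum of the 4 monocyte genes, 34 members sat at 3 and 55 otherwise eligible cells at 2. At the Elane limit, 29 members held 4 UMIs and 35 otherwise eligible cells held 5. Of the 29, 27 were among the 471 knockout-labelled members and 2 among the 92 WT-labelled ones. A further 118 cells failed by a single UMI of Dntt.

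Markers that the gate did not use showed that the 563 cells were not all alike. Most of them, 520 cells or 92.4%, carried a progenitor profile, with Mpo at 2423 CPM, Kit at 105 CPM, Cd34 at 344 CPM and Flt3 at 272 CPM. A group of 28 cells, outside the third group described below, held at least 5 UMIs of S100a4 plus Lgals3, a calcium-binding protein and a galectin of mature monocytes. In these 28 cells Lyz2 (lysozyme) stood at 8661 CPM against 123 CPM in the 520, Fn1 (fibronectin) at 1727 against 2.26 CPM, and Ly6c2, the antigen of classical monocytes, at 1436 against 100 CPM. Kit (11.9 CPM), Cd34 (38.6 CPM) and Mpo (320 CPM) were low there. As a group these 28 therefore went against the name progenitor, and they are called S100a4/Lgals3-high cells. Not each of them did so, since 2 in knockout 1 held 22 and 46 UMIs of Mpo.

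The third group, of 15 cells, held at least 5 UMIs over Siglech, Ly6d, Cd209d, Ebf1, Cd79a and Igll1, which are plasmacytoid dendritic and B cell genes, and is called pDC/B-gene-high. It had Irf8 at 2116 CPM, Ly6d at 1312 CPM, Siglech (a lectin of plasmacytoid dendritic cells) at 520 CPM and Bst2 at 1203 CPM, against 0.10, 2.05 and 84.8 CPM of Ly6d, Siglech and Bst2 in the 520 cells. Ebf1 was found in only 6.67% of the 15 cells. The limits of 5 UMIs were set after the values were seen, so no test is attached to these groups, and the 520 remaining cells are called the core. In knockout 3 no cell exceeded 2 UMIs of S100a4 plus Lgals3, and in WT 1, WT 2 and WT 3 no cell lay between 3 and 9. The limit was less clear in knockout 1, where 9 cells outside the pDC/B-gene-high group held 3 or 4 UMIs and 2 held 5 to 9.

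The S100a4/Lgals3-high cells numbered 11, 2 and 0 in knockout 1, 2 and 3 and 3, 5, 4 and 3 in WT 1 to 4. As a share of members that is 6.04%, 1.29% and 0% against 11.1%, 33.3%, 50% and 7.14%. These shares also move with the number of core cells. As a percent of kept cells, the S100a4/Lgals3-high cells made up 0.358%, 0.116% and 0% in knockout 1, 2 and 3 and 0.241%, 0.427%, 0.267% and 0.0339% in WT 1 to 4, so the labels overlapped. Core cells made up 5.40%, 8.87% and 1.95% of kept cells against 1.93%, 0.853%, 0.267% and 0.327%. A share of 0 in the 134 members of knockout 3 allows up to 2.72% (exact binomial, 95%, counting error only). The plasmacytoid and B gene group came from 2 libraries alone, 5 cells of knockout 1 and 10 of WT 4, and in WT 4 it was 23.8% of members (12.1 to 39.5%, exact binomial interval). Pooled over libraries, the core made up 96.2% of the 471 knockout-labelled members and 72.8% of the 92 WT-labelled ones.

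**Figure D1:**
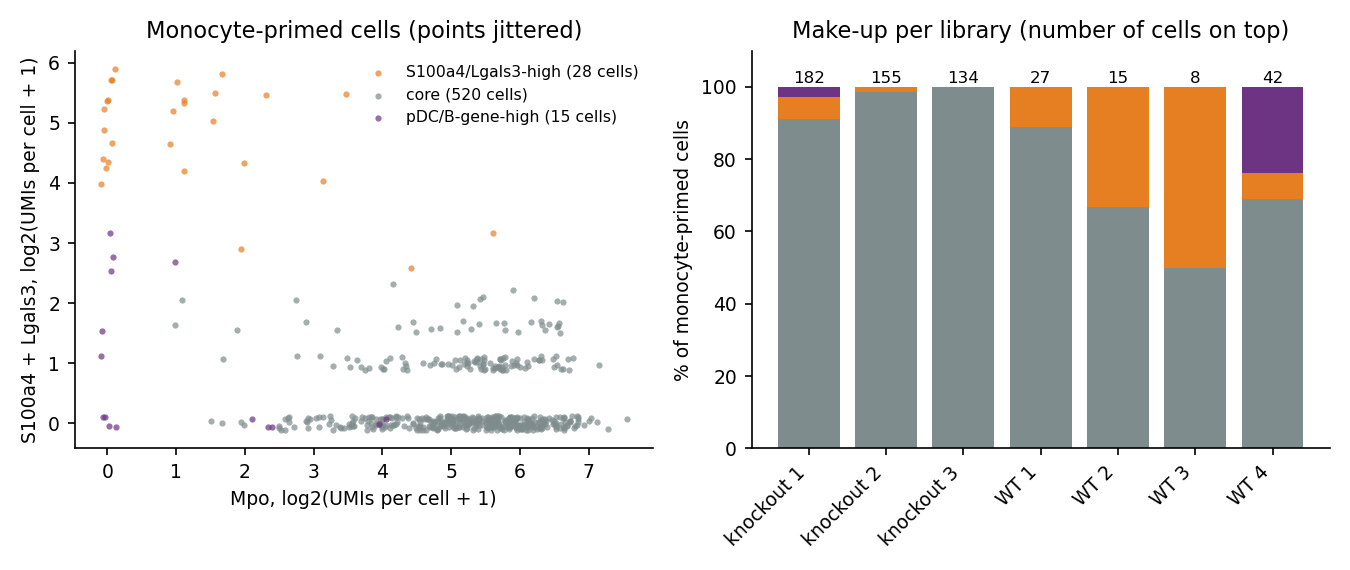
Make-up of the gated cells. The scatter shows each of the 563 members by its UMIs of Mpo and of S100a4 plus Lgals3. Both axes are on a log2(UMI + 1) scale with small jitter. The stacked bars show the percent of each library's members in the core, the S100a4/Lgals3-high and the pDC/B-gene-high group, with member counts above. Most S100a4/Lgals3-high cells sit apart at low Mpo, while 2 of knockout 1, at 22 and 46 UMIs of Mpo, lie near the core. The S100a4/Lgals3-high group fills 50% of the bar of WT 3 and none of knockout 3.

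The share of kept cells that were members asks how many LSK cells of each label stood in this state. It was 5.92% (182 of 3072 cells) in knockout 1, 8.99% (155 of 1725) in knockout 2 and 1.95% (134 of 6855) in knockout 3. In WT 1 to 4 it was 2.17% (27 of 1244), 1.28% (15 of 1172), 0.533% (8 of 1500) and 0.474% (42 of 8862). The means were 5.62% ± 3.53 (SD, n = 3) and 1.11% ± 0.794 (SD, n = 4), and WT 1 lay above knockout 3. An exact two-sided permutation test gave p = 0.0571, or 0.114 after Benjamini-Hochberg adjustment over the 2 shares tested. With 3 and 4 libraries the smallest p it allows is 0.0286. The difference of 4.51 percentage points did not pass.

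Within each barcode list, the knockout-labelled share was the higher one. In list A the 2 knockout-labelled libraries averaged 7.45% and the 3 WT-labelled ones 1.33%, a ratio of 5.61, with no overlap (exact permutation p = 0.1, the smallest 5 libraries allow). In list B the single pair stood at 1.95% against 0.474%, a ratio of 4.12. With Irf8 at 2 UMIs or more, the labels no longer overlapped and the exact permutation p, not adjusted over the 2 shares, was 0.0286. The same p came with no limit on the mitochondrial share, an alternative added after seeing the data. Cells were also thinned to 5000 UMIs, with shallower cells dropped and the gate applied again. The difference was then 3.47 points, with p = 0.0571 by the same exact permutation test.

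Granule-high cells, the other myeloid branch in these libraries, were kept cells with at least 5 UMIs of Elane and none of Irf8 or Dntt. There were 257, 44 and 56 in knockout 1, 2 and 3 and 11, 5, 10 and 63 in WT 1 to 4. Set against them, members made up 41.5%, 77.9% and 70.5% of members plus granule-high cells in the knockout-labelled libraries and 71.1%, 75%, 44.4% and 40% in the WT-labelled ones. The means of 63.3% ± 19.3 (SD, n = 3) and 57.6% ± 17.9 (SD, n = 4) differed by 5.67 points, less than the spread within either label (exact permutation p = 0.743). This balance between the 2 branches had no stable direction. It was lower in the knockout label by 3.83 points within list A, by 1.63 without knockout 2 and by 0.21 without WT 4.

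**Figure D2:**
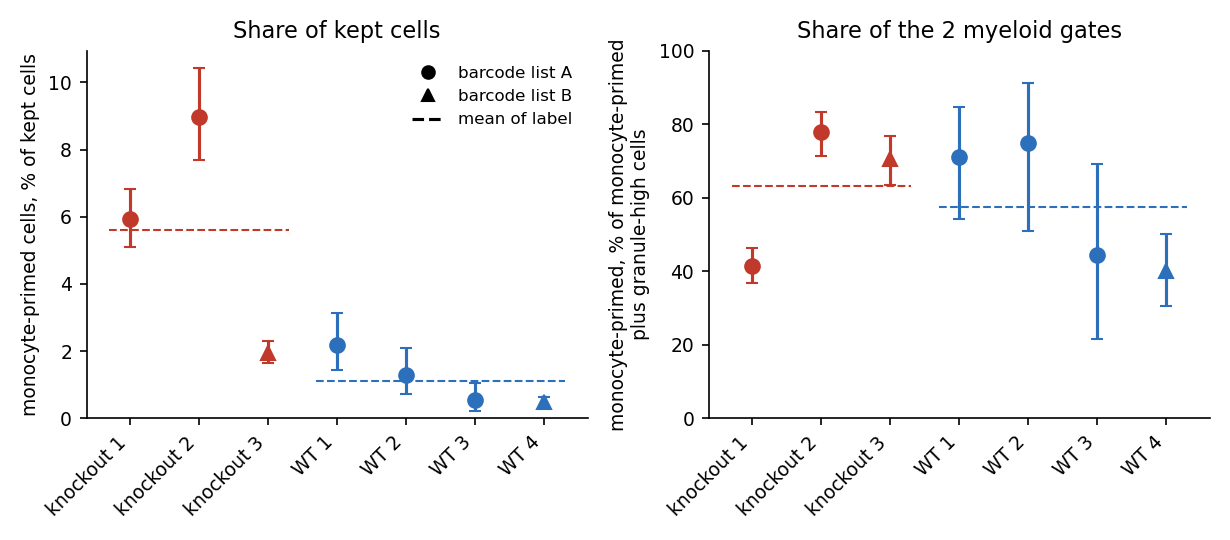
Share of members per library. The left panel plots members as a percent of kept cells and the right panel members per 100 members plus granule-high cells, with exact binomial 95% intervals (counting error only), circles for barcode list A, triangles for list B and dashed lines at the label means; in the left panel WT 1 at 2.17% lies above knockout 3 at 1.95%, and in the right panel the labels span the same range.

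To place the members between the granulocyte and the monocyte branch, their summed counts were compared with those of granule-high cells. The test was edgeR's quasi-likelihood F test with library as a block, over knockout 1 to 3, WT 1 and WT 4, each of which had at least 10 cells of either kind. Genes that defined the gates were left out. Of 9778 genes tested, 27.5% were called at an adjusted p under 0.05, with 12.8% higher and 14.7% lower in members. Without knockout 1, 1573 genes were called instead of 2689, and without the library block 490. The 26 monocyte genes outside the rule stood well apart from this background in direction: 18 were higher and 2 lower, with a median log2 difference of 1.11 against -0.01 for all genes.

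Among monocyte genes, Ctss had the largest difference. This lysosomal cysteine protease, which trims antigen for MHC class II loading, stood at 86.4, 49.1, 45.3, 51.2 and 128 CPM in the members of knockout 1, 2, 3, WT 1 and WT 4 and at 1.60, 0, 3.42, 0 and 4.26 CPM in the granule-high cells of the same libraries. No value of one population reached the other, and the log2 difference was 5.14 ± 0.27 (SE; edgeR adjusted p = 5.61e-13). Pld4, a lysosomal nuclease, was higher by 4.01 ± 0.30 (adjusted p = 1.9e-10 by edgeR). Ms4a6c, a tetraspan membrane protein of monocytes, was higher by 2.64 and Mpeg1, a pore-forming protein of phagocytes, by 3.11. Ly6c2 and Clec12a went the other way, by -2.10 and -1.24. Both of these surface genes were strong in granule-high cells, at 220 to 793 CPM for Ly6c2 and 255 to 722 CPM for Clec12a over the 5 libraries.

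Part of the monocyte list followed the 28 S100a4/Lgals3-high cells. S100a4 (4.89) and Lgals3 (5.00) rank among the largest log2 differences, but Lgals3 could not be tested in the core and S100a4 there was higher by 3.22. Lyz2 was higher by 0.89 in all members (edgeR adjusted p = 0.03) and stood at -0.62 in the core (adjusted p = 0.306), and Tgfbi went from 1.17 to -0.12. Ly6c2 no longer passed in the core either (-2.64, edgeR adjusted p = 0.0506). In the core, 14 of 25 monocyte genes tested were higher and 2 lower, against 11.9% and 14.2% of all genes. Ctss, Pld4, Ms4a6c and Mpeg1 remained called there, with log2 differences of 4.67, 3.41, 2.52 and 2.66.

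Granule genes went the other way. Of 18 tested, 17 were lower in members, with a median log2 difference of -3.24, and the single higher one, Mmp8 (neutrophil collagenase, 2.59), could not be tested in the core. Cebpe, the factor that turns on secondary granule genes, stood at 2.77, 0, 5.00, 0 and 0 CPM in members and at 173, 71.6, 212, 341 and 255 CPM in granule-high cells of the same libraries, a log2 difference of -6.35 ± 0.29 (edgeR adjusted p = 2.04e-09). The secondary granule and alarmin genes Fcnb (-8.13 ± 0.32), S100a9 (-8.12 ± 1.03), Camp (-7.59 ± 1.08), S100a8 (-7.48 ± 0.80) and Ngp (-5.98 ± 0.83) were lower too. Granule-high levels were uneven across libraries, at 62.4 to 9756 CPM for S100a9. Ngp ran from 2.55 to 625 CPM there and from 0 to 4.61 CPM in members. S100a8 and S100a9 lost their call within list A, and Camp and Ngp without knockout 1. Mpo and Prtn3, the primary granule genes, were lower by smaller amounts. Mpo stood at 1784 to 2908 CPM in members of the 5 libraries and at 6420 to 7980 CPM in granule-high cells (-1.84 ± 0.21, adjusted p = 0.00396 by edgeR).

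Of 22 myeloid transcription factors tested, 11 were higher and 6 lower. Higher in members were Bach2 (3.12), a repressor active in lymphoid-competent progenitors, Irf5 (2.51), Klf4 (2.26), a factor needed for classical monocytes, Tcf4 (1.74), the plasmacytoid dendritic cell factor, Runx1 (0.87) and Zeb2 (0.86). The immediate early genes Egr1 (1.24), Fos (1.10), Nr4a1 (0.97) and Jun (0.55) were higher too. Lower were the neutrophil factors Cebpe and Gfi1 (-3.15), as well as Cebpd (-1.32), Cebpa (-0.77), Cebpb (-0.74) and Myb (-1.02). Spi1 did not pass, at -0.30 ± 0.11 (edgeR adjusted p = 0.0505). Its CPM overlapped between the populations, 113 to 250 in members and 151 to 249 in granule-high cells.

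Receptors differed in both directions. Flt3, the receptor of the dendritic cell growth factor, stood at 265, 260, 287, 189 and 281 CPM in members and at 11.4, 28.3, 37.6, 0 and 40.9 CPM in granule-high cells (3.40 ± 0.38, edgeR adjusted p = 0.00164). Both chains of the interleukin-6 receptor were higher, Il6st by 4.45 and Il6ra by 2.31, as was Ifnar1 by 1.02. Csf3r, the G-CSF receptor, was lower by 0.84 ± 0.15 on the log2 scale (adjusted p = 0.000175 by edgeR), together with Csf2ra, Kit, Tnfrsf1a and Ifngr1. In all, 4 of 12 receptor and feedback genes were higher and 5 lower. The G-CSF receptor transcript was still present in members of every library, at 25.3 to 96.1 CPM.

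Homing, sensing and lysosomal genes completed the contrast. Of 13 chemokine receptor and adhesion genes tested, 7 were higher, among them Itgb7 (integrin beta 7, 4.25), Cx3cr1 (fractalkine receptor, 1.77) and Selplg (P-selectin ligand, 1.51), while Itgb2 and Ccr1 were lower. Of 13 innate sensing genes, 4 were higher: Cd180 (2.66), Cfp (properdin, 2.18), Nlrp3 (1.99) and Unc93b1 (1.56), the chaperone of endosomal toll-like receptors. The 5 lower ones included Tlr4 (-2.90), the receptor for bacterial lipopolysaccharide, and Fcgr3 (-4.09), an Fc receptor used to sort granulocyte-monocyte progenitors. Fcgr3 stood at 0 to 6.10 CPM in members of the 5 libraries and at 25.4 to 126 CPM in granule-high cells. Lysosomal genes were higher in 7 of 14 and lower in 1.

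Mpo-only cells served as the less committed comparator. They held at least 3 UMIs of Mpo, at most 4 of Elane and none of Irf8, Dntt or the 4 monocyte genes, and numbered 2837. In all, 6 libraries had at least 10 cells of each kind; WT 3, with 8 members, was left out. Of 11537 genes tested, 38.3% were called, 19.5% higher and 18.8% lower in members. The comparator cells were shallower, with a median of 10244 UMIs against 17694 in members. After cells were thinned to 5000 UMIs, with those below that depth dropped, 2540 genes were called instead of 4417.

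Against these cells, 22 of 26 monocyte genes were higher and none lower, with a median log2 difference of 2.02 against -0.01 over all genes. Mpeg1 stood at 20.4 to 146 CPM over the members of the 6 libraries and at 0 to 1.47 CPM in Mpo-only cells (6.78 ± 0.30, edgeR adjusted p = 1.16e-13). Ly6c2 stood at 33.4 to 381 CPM against 0 to 17.7 CPM (5.31 ± 0.60, adjusted p = 0.00125 by edgeR). Clec12a, an inhibitory lectin of myeloid cells, was higher by 3.96, Slpi, a secreted protease inhibitor, by 3.83, Ms4a6c by 3.58 and Cx3cr1 by 3.61. Ly6c2, Clec12a and Slpi thus separated members from Mpo-only cells but not upwards from granule-high cells, where Slpi differed by -0.11. In the core, 18 of 25 were higher and 1, Tgfbi, lower, with a median of 1.31, against 18.4% and 21.6% of all genes.

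The cells high in S100a4 and Lgals3 again set some of these values. Fn1 was higher by 6.26 in all members, where it ran from 0.769 to 596 CPM, but in the core it lay between 0 and 6.65 CPM. Cybb, the phagocyte oxidase subunit, was higher by 4.05 (edgeR adjusted p = 0.0317) and stood at 1.31 in the core, where it did not pass (adjusted p = 0.204). Klf4 fell short there as well, at 0.21 against 1.10 in all members. Mpeg1, Ly6c2, Clec12a and Slpi were called in the core with log2 differences of 6.00, 4.05, 3.92 and 3.81.

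The members carried more primary granule transcript and less stem cell transcript than Mpo-only cells. Prtn3 (1.82), Ctsg (2.77), Prss57 (0.98), Hk3 (0.82), Calr (0.57), Serpinb1a (0.23) and Mmp8 were higher, whereas Lcn2, S100a8, S100a9, Camp, Ngp, Ltf and Gstm1 were lower. This made 7 of 19 granule genes higher and 7 lower. S100a9 in Mpo-only cells was carried by knockout 1 and WT 1, at 1723 and 953 CPM, against at most 6.33 CPM in the other 4 libraries. Ms4a3, Gfi1 and Cebpe did not pass, at 0.38, -0.10 and -0.56. In the core 7 granule genes were higher and 9 lower. There Ms4a3 passed as higher (0.41, edgeR adjusted p = 0.0354), Fcnb and Cd177 passed as lower, and Mmp8 no longer passed.

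All but 1 of the 12 stem cell genes were lower in members, with a median of -1.92. Hlf, a factor of long-term stem cells, stood at 8.2 to 39.8 CPM in members of the 6 libraries and at 151 to 375 CPM in Mpo-only cells (-2.86 ± 0.20, edgeR adjusted p = 2.23e-06). Fgd5 (-3.45), Trpc6 (-3.50) and Mecom (-2.60) followed it. Meis1 and Hoxa9 were lower by 1.89 and 0.66 on the log2 scale. Kit was lower in members than in either comparator, by 1.17 here and by 0.43 against granule-high cells. Ly6a, which encodes the sort antigen Sca-1, was at 15.8, 17.4 and 15.4 CPM in knockout 1, 2 and 3 and at 6.15, 0, 0 and 13.5 CPM in WT 1 to 4. It was lower than in Mpo-only cells (-1.06, edgeR adjusted p = 0.00305) and higher than in granule-high cells (1.59, adjusted p = 0.000367).

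Cell cycle genes also differed from the Mpo-only state. All 18 genes of the G2/M list were higher in members, with a median of 0.76; Ccnb1 (cyclin B1) had the largest difference at 1.32 ± 0.17 and Kif11 the smallest at 0.51. Mki67 stood at 343, 348, 111, 437, 600 and 125 CPM in members of knockout 1, 2, 3, WT 1, 2 and 4 and at 276, 278, 82.3, 280, 409 and 88.4 CPM in Mpo-only cells, higher in each library (0.56 ± 0.08, edgeR adjusted p = 1.69e-06). The 2 list B libraries were the lowest for this gene in either population. In the core 17 of the 18 were called. Members were deeper than Mpo-only cells (medians of 17694 and 10244 UMIs), and the gate asks for minimum counts. The part of this choice of cells in the cell cycle difference was not tested. Of 15 S phase genes, 5 were higher, none lower. Against granule-high cells the G2/M list split into 3 higher and 1 lower, with a median of -0.03.

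Lysosomal genes were higher in 11 of 14 and lower in none, with Ctsh (3.48), Ctss (3.05), Lgmn (2.36) and Ctsz (1.73) foremost. Innate sensing genes were higher in 9 of 13, and adhesion and homing genes in 9 of 14. Of 22 transcription factors, 10 were higher, including Zeb2 (1.41), Cebpd (1.42), Cebpb (1.25), Cebpa (0.60) and Spi1 (0.53). The 7 lower ones included Nr4a1 (-0.98), Stat3 (-0.64) and Etv6 (-0.59). Zeb2, a repressor that monocyte and dendritic progenitors need, reached 333 to 1150 CPM in members of the 6 libraries and 128 to 506 CPM in Mpo-only cells, and was the higher one in every library. Among receptors and their feedback genes, Il6st (2.53), Il6ra (1.90) and Flt3 (0.80) were higher, and Kit, Csf3r and the cytokine feedback inhibitors Socs2 (-2.51), Cish (-2.24) and Socs3 (-1.53) lower.

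Most genes of the megakaryocyte, erythroid, basophil and mast cell lineages were lower. Of 8 megakaryocyte and erythroid genes tested 6 were lower than in Mpo-only cells, as were 6 of 7 basophil and mast cell genes, and none was higher. Interferon response genes were lower than in Mpo-only cells in 8 of 19 and higher in 3, Ifi27l2a, Ly6e and Bst2. Against granule-high cells 5 of 13 were higher and none lower, with a median of 0.66. In members the T and NK cell markers Cd3e, Cd3g, Trbc1, Gzma and Ncr1 were at 0 in all libraries, and the 9 genes of that list summed to 40.4 to 161 CPM in the knockout label and 28.7 to 202 CPM in the WT label. Of 9 macrophage markers C1qa, C1qc and Vcam1 were at 0 as well, and the list summed to 11.6 to 13.1 CPM in the knockout label and 6.38 to 33.1 CPM in the WT label. The filter on low counts left 2 of the 9 for the comparison with Mpo-only cells, Adgre1 (3.47) and Cd163 (2.12). Their levels in members were at most 19.9 and 8.43 CPM, and the core estimates were 2.94 and 2.00. Genes this low can pass the filter through the members alone, so that both were higher is no separate finding. Vcam1 was present in granule-high cells of all 7 libraries, at 5.97 to 35.8 CPM. The part of other cell types in the differences was not tested.

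Dendritic cell genes were higher in members as well. Of 10 tested against granule-high cells 7 were higher and none lower, and of 13 tested against Mpo-only cells 9 were higher and none lower. In the core 5 of 7 were higher and 1, Id2, lower than in granule-high cells, and 5 of 9 were higher and 1, Cd74, lower than in Mpo-only cells. Tcf4, H2-DMa, a chaperone of class II loading, and Cox6a2 were called higher in both, in all members and in the core. Siglech and Ly6d were called too, but both genes lay mainly in the 15 cells described above, which had been picked by them. The lymphoid genes Notch1 and Satb1 were higher in both comparisons, and Il7r, the interleukin-7 receptor, in the one with Mpo-only cells. Notch1 and Satb1 were called in the core too, where Il7r could not be tested.

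**Figure D3:**
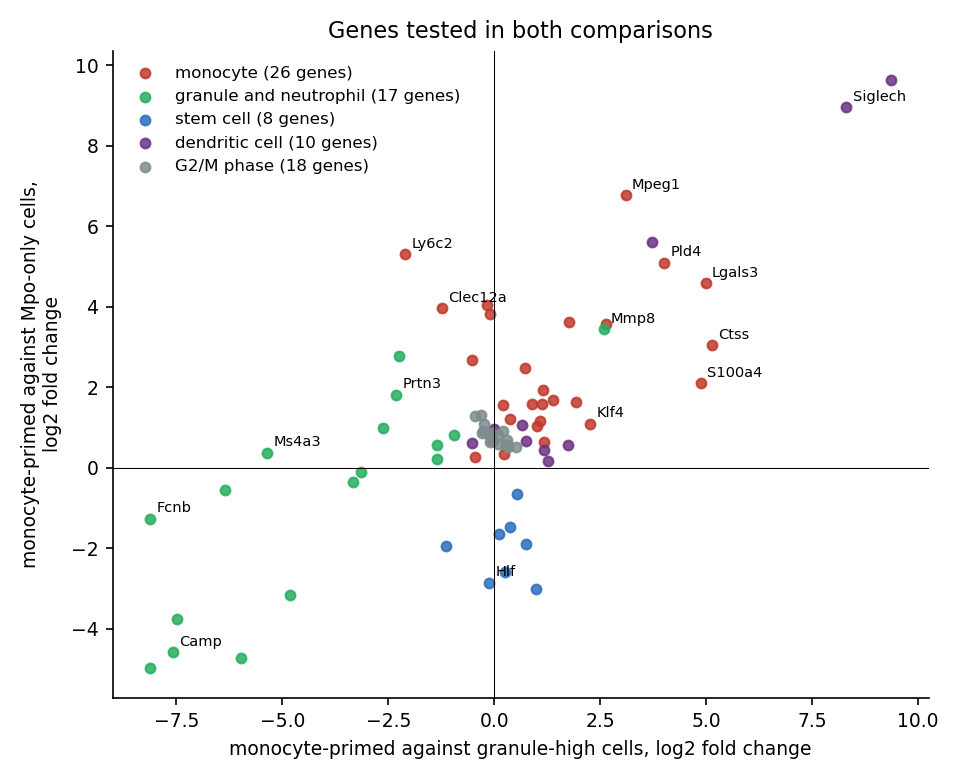
Genes of 5 fixed lists in the members. Each point is a gene, with its log2 difference from granule-high cells on the x axis and from Mpo-only cells on the y axis (edgeR estimates, members minus comparator); monocyte genes lie mostly at positive values of both, granule genes at negative x, stem cell genes at negative y, and G2/M genes near 0 on x with all 18 above 0 on y.

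The genes that stood higher in members in both comparisons by more than 1 on the log2 scale numbered 137, and RefSeq promoters (GRCm38.p6, 250 bases before to 50 after each start) matched 104 of them. Since both comparisons share the members, this set is a definition and not a second finding. Binding letters of PU.1 and Irf8 were searched on both strands, since these 2 factors act together on monocyte genes. The PU.1 letters GAGGAAGT were found for 9 of the 104 genes (8.65%), against 3.88% of 7813 tested genes and 3.69% of all 27025 genes with a promoter. The composite read by PU.1 with an Irf partner, GGAA and then GAAA after any 2 bases, was found for 5.77%, against 2.89% of tested and 3.16% of all genes. The interferon-type letters, GAAA and again GAAA after any 2 bases, can overlap the composite and were found for 3.85%, against 3.74% and 3.99%. The C/EBP letters TTGC and AA, with any 2 bases between, were found for 15.4%, against 9.82% and 12.2%. Among the 322 genes with a promoter that were lower in members than in granule-high cells by more than 1 on the log2 scale, the C/EBP letters were found for 16.5% and the PU.1 letters for 4.04%.

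In 5 of the 9 genes with GAGGAAGT, the match began within 10 bases of the annotated start, which was the case for 48 of the 303 tested genes with a match. Of these, 4 are shown from 100 bases before to 20 after the start, 5′ to 3′ on the gene's strand. Ms4a3, which recurs in the label comparison, is shown beside them. Capitals mark GAGGAAGT or its reverse complement and, in Ctss, also the interferon-type letters. Ms4a3 has no match to the PU.1, composite or interferon-type letters in the 300 bases searched.
Ctss (chr3:95526686-95526805, + strand): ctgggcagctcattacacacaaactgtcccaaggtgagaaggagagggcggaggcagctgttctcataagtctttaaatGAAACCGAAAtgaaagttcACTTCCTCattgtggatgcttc
Itgb7 (chr15:102231916-102232035, - strand): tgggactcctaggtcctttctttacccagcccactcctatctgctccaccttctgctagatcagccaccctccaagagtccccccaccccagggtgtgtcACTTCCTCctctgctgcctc
Fgd2 (chr17:29360814-29360933, + strand): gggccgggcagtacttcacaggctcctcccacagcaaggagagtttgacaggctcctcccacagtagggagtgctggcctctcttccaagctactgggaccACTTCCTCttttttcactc
Pld4 (chr12:112760555-112760674, + strand): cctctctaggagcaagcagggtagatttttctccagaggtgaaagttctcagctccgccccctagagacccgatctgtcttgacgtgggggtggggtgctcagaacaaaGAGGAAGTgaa
Ms4a3 (chr19:11640832-11640951, - strand): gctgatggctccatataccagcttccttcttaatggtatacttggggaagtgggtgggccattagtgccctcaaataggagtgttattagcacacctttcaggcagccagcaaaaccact
These are matches of letters and not measured binding sites. The 4 genes shown with capitals had log2 differences of 5.14, 4.25, 3.35 and 4.01 from granule-high cells, in the order Ctss, Itgb7, Fgd2 and Pld4. Fgd2 encodes an exchange factor for the small GTPase Cdc42 in antigen-presenting cells, and it was higher in members of all 5 libraries.

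Cells that met the same gate but held at least 5 UMIs of MHC class II genes numbered 36. By library they numbered 2, 3 and 3 in knockout 1, 2 and 3 and 5, 1, 5 and 17 in WT 1 to 4. WT 4 was the sole library with 10 or more. Members were not fitted against them, since the minimum of 10 cells left 1 library, and levels are given side by side. Irf8 stood at 1440 to 2558 CPM in these cells over the 7 libraries and at 443 to 893 CPM in members. Cd74, the class II invariant chain, ran from 800 to 21608 CPM against 1.54 to 52.2 CPM. Mpo had a median of 35.5 CPM over libraries against 1961 CPM, and Cd34 a median of 38.1 against 313 CPM. In each of the 7 libraries, Irf8 and Cd74 were above, and Mpo and Cd34 below, the level in members. Outside WT 4 these levels rest on 1 to 5 cells per library.

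The label comparison within members asked which genes differed between knockout-labelled and WT-labelled libraries in this state. Of 10124 genes tested by edgeR in 6 libraries with barcode list as a term, 10 were called (0.0988%), 2 higher (0.0198%) and 8 lower (0.079%) in the knockout label; 651 had an unadjusted p under 0.05. Without barcode list in the model edgeR called none (137 at an unadjusted p under 0.05). The count was 4 without knockout 2 and 31 to 46 without knockout 1, knockout 3, WT 1, WT 2 or WT 4. Ms4a3 had the smallest p. It encodes a tetraspan protein of granulocyte-monocyte progenitors (chr19:11629496-11640851, minus strand, GRCm38), and the family members Ms4a6c and Ms4a4c lie on the same chromosome. Its level was 78.1, 65.7 and 28.4 CPM in knockout 1, 2 and 3 and 6.15, 9.94, 0 and 6.74 CPM in WT 1 to 4. All 3 knockout-labelled values lay above all 4 WT-labelled ones, with a log2 difference of 2.88 ± 0.37 (SE; edgeR adjusted p = 0.000159).

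Ms4a3 was not set by a few cells: 181 of 471 knockout-labelled members and 9 of 92 WT-labelled ones held a UMI of it. In the core it was higher by 2.65 ± 0.38 (edgeR adjusted p = 0.000108), and it was called in each of the 6 fits that left out a library, with the highest adjusted p of 0.00593 without knockout 2. Without barcode list in the model it was not called (2.93, edgeR adjusted p = 1.00). After thinning to 5000 UMIs, 25.3%, 22.2% and 8.21% of knockout-labelled members held a UMI, against 3.70%, 0%, 0% and 2.63% in WT 1 to 4.

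Ms4a3 differed between labels outside the members as well. In Mpo-only cells it stood at 51.2, 35.5 and 34.1 CPM in the knockout label and 7.77, 8.64, 8.51 and 15.7 CPM in the WT label, again without overlap. Stem-like cells with at least 2 UMIs of Hlf, no Irf8 and at most 4 of Elane, which should lack this gene, held 28.7, 12 and 9.54 CPM against 3.92, 2.51, 2.76 and 5.37 CPM. Members exceeded that background by 2.73, 5.47 and 2.98 times in knockout 1, 2 and 3 and by 1.57, 3.95 and 1.26 times in WT 1, WT 2 and WT 4. The share with a UMI was 49.5%, 37.4% and 24.6% of members against 18.3%, 4.55% and 7.20% of the Hlf cells in the knockout label, and 11.1%, 13.3%, 0% and 9.52% against 1.90%, 2.14%, 2.52% and 4.04% in the WT label. Median depths were 14117 to 19016 UMIs in members and 5991 to 9691 in the Hlf cells. Over all kept cells, most of which are not members, the level was 723, 151 and 60.5 CPM against 65.0, 30.7, 17.5 and 48.9 CPM. The parts of free RNA and of members near the Elane limit in the difference within members were not tested.

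The other rise, Ccl5, a T and NK cell chemokine, rested on few molecules. Of 125 UMIs in the members of knockout 3, 116 came from 1 cell, and the WT label held 3 UMIs in all. Its levels were 4.71, 13.9 and 48.0 CPM against 0, 0, 6.38 and 3.37 CPM.

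The 8 genes called lower in the knockout label, with log2 differences of -2.82 to -1.60, included Pid1, Ahnak, C3, Stxbp6, Itga1, Ms4a4c and Plcb1. Ahnak, a large scaffold protein, stood at 33.0, 24.5 and 5.38 CPM in knockout 1, 2 and 3 and at 121, 282, 345 and 16.9 CPM in WT 1 to 4. WT 4 lay under knockout 1 and 2, but above knockout 3, its partner in list B (-2.53 ± 0.30, edgeR adjusted p = 0.000584). Pid1 stood at 16.6, 15.8 and 1.15 CPM against 53.3, 176, 255 and 20.2 CPM, and Plcb1 at 45.4, 64.9 and 3.46 against 133, 219, 345 and 10.1 CPM. C3 is complement component 3, Itga1 the collagen-binding integrin alpha 1, and Ms4a4c another tetraspan protein of monocytes.

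Of these 8 falls, all but that of Ms4a4c lay largely in the S100a4/Lgals3-high cells. In the WT label those 15 cells, of 92 members, held 86.5% of all Ahnak UMIs, 95.3% of Plcb1, 93.1% of Pid1, 96.6% of C3, 86.7% of Stxbp6, 82.3% of Itga1 and 59.5% of Ms4a4c. In the knockout label, 13 of 471 members held 40.5% of Ahnak and 19.2 to 48.5% of the other 7. In the core fit none of the 7 that could be tested was called. Ahnak stood at -0.51 (edgeR adjusted p = 1.00) and Plcb1 reversed to 1.48 (adjusted p = 1.00); C3 could not be tested. Ms4a4c kept a larger part of its fall, at -0.89 in the core, though it did not pass. Its core levels were 14.2, 17.2 and 9.99 CPM in knockout 1 to 3 and 31.0, 20.6, 0 and 21.2 CPM in WT 1 to 4. Without the S100a4/Lgals3-high cells alone, 3 genes were called, none of them lower.

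**Figure D4:**
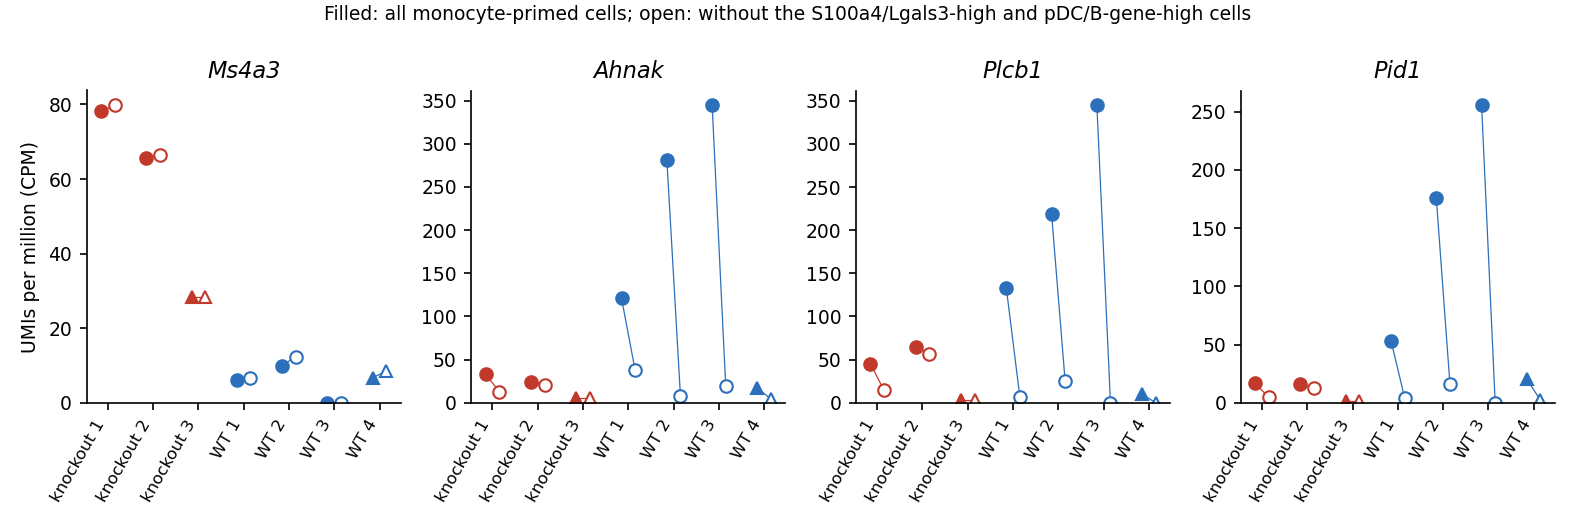
Genes of the label comparison by library. CPM per library is plotted for Ms4a3, Ahnak, Plcb1 and Pid1 in all members (filled) and in the core (open), knockout label in red and WT label in blue; Ms4a3 keeps its level in the core (28.4 to 79.7 CPM against 0 to 12.4 CPM), whereas the WT values of Ahnak drop from 16.9 to 345 CPM in all members to 4.23 to 37.7 CPM in the core.

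In the core, 6 of 9886 genes were called (0.0607%), 4 higher (0.0405%) and 2 lower (0.0202%) in the knockout label. Besides Ms4a3 and Ccl5, the higher ones were Plxdc1 (2.98) and Gm47283 (1.29 ± 0.23, edgeR adjusted p = 0.00574). Gm47283 was as high outside the members: its level in all members was 0.63 to 1.28 times that in Hlf cells of the same library. Its core levels were 777, 1010 and 282 CPM against 377, 214, 271 and 169 CPM. Lower in the core were Agbl4 and Arpp21, the latter a gene of early lymphoid cells, with log2 differences of -2.30 and -3.66. Few cells carried the UMIs of Agbl4, Arpp21 and Plxdc1: 24 of the 25 Agbl4 UMIs and all 11 Arpp21 UMIs of WT 1 came from 1 cell, as did 25 of the 42 Plxdc1 UMIs of knockout 3. Arpp21 rested on 33 UMIs in all members. Plxdc1, Arpp21 and Agbl4 are named because they were called in the core, after their values were seen.

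The lists gave few calls between labels. None of the 26 monocyte genes passed; 23 had negative estimates, with a median of -0.63 against 0.01 over all genes. Psap (prosaposin) came nearest at -1.06 ± 0.22 and Pld4 at -1.28 ± 0.27, both with an edgeR adjusted p of 0.0509. In the core 25 could be tested, none passed and the median was 0.16, with 20 positive. The 14 lysosomal genes followed the same course, with a median of -0.60 in all members and 0.23 in the core, and no call in either. The summed level of the monocyte list was 4071, 3411 and 2963 CPM in knockout 1, 2 and 3 and 5088, 7136, 9177 and 5260 CPM in WT 1 to 4. The list holds S100a4 and Lgals3, which defined the S100a4/Lgals3-high cells, so the share of those cells and this sum are not independent.

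Among granule genes, Ms4a3 was the 1 of 13 that passed. Prtn3 stood at 1273, 1239 and 1501 CPM against 1031, 543, 447 and 694 CPM, without overlap, but it did not pass (0.83 ± 0.24, edgeR adjusted p = 0.265). The labels did not overlap for Prtn3 in the Hlf cells either, at 328, 386 and 415 CPM against 138, 117, 115 and 252 CPM. The part of free RNA in this was not tested. Of the 18 G2/M genes none passed and all had negative estimates, with a median of -0.53 in all members and -0.36 in the core. Cenpf came nearest at -0.87 ± 0.20 (edgeR adjusted p = 0.0876). S phase, transcription factor, receptor, adhesion and interferon lists gave no call, and C3 was the single innate sensing gene called.

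The enzymes of the study's own pathway were also measured in the members. None of the 7 galactosyltransferase and Muc13 genes tested passed between labels. Muc13, a membrane mucin named in the study's title, stood at 62.3, 51.9 and 152 CPM in knockout 1, 2 and 3 and at 38.9, 59.6, 70.2 and 57.3 CPM in WT 1 to 4, with overlapping labels (0.78 ± 0.26, edgeR adjusted p = 0.424). It was lower in members than in Mpo-only cells in each of the 6 libraries fitted (-1.45 ± 0.12, adjusted p = 4.65e-10 by edgeR) and did not differ detectably from granule-high cells (-0.15 ± 0.19). B4galt6, a lactosylceramide synthase, marked the branch: it stood at 7.30 to 14.2 CPM in members and at 66.6 to 250 CPM in granule-high cells of the 5 libraries (-3.95 ± 0.22, adjusted p = 1.36e-09 by edgeR). B4galt5, the other lactosylceramide synthase, was higher by 1.14 and B4galt3 lower by 0.66 on the log2 scale. B4galt1 itself passed in neither comparison, at -0.37 against granule-high cells and 0.11 against Mpo-only cells.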

How the data were processed

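As deposited, each of 7 LSK libraries is a table of raw UMI counts (32285 genes by cell), made by the authors with Cell Ranger 7.0.0 on mm10, with Seurat 4.4.0 also named, per the submitters' processing notes. Cells were gated on counts, with no clustering and no doublet caller, so doublets remain. The members and gene lists were chosen with earlier results of these data known. The comparators and gene lists were fixed in the design, the subsets and the core after their values were seen. Counts were summed per library and population (at least 10 cells) and fitted with edgeR 4.0.16 quasi-likelihood (TMM scaling, its filter on low counts, robust, Benjamini-Hochberg threshold 0.05) in R 4.3.3. The label fit held barcode list as a covariate, and comparisons between populations held library as a block. DESeq2 1.42.0, other gates, thinning to 5000 UMIs and leaving out each library were the alternatives. CPM used each population's summed UMIs. Tested on simulated data, the fits recovered 77.5% (label, 9844 genes), 99% (granule-high, 9378) and 97.5% (Mpo-only, 11106) of 200 genes changed by a log2 of 2. Shares were tested by exact permutation with scipy 1.17.1. Depth per library bounds the intervals, which cover counting error only. Promoters came from RefSeq (GRCm38.p6).

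Any list member could be named. Between labels, the rule named up to 10 rises and 10 falls among called genes with a mean of at least 20 CPM and no overlap of labels within either barcode list. Per population comparison it named the 15 largest rises and 10 largest falls with at least 50 CPM in the higher population and 1 direction in all libraries. Ccl5 falls outside the rule, and it and the genes named from the core were chosen after their values were seen. Values of some genes counted in the lists are not reported here.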

Additional observations from a re-analysis of the deposited data

Results flagged for a closer look

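Of 15 groups of 4 WT-labelled libraries examined for a lone extreme value, 2 had one by Dixon's criterion for 4 samples, where chance gives about 1 in 20. In WT 4, 23.8% of members were cells high in plasmacytoid dendritic and B cell genes, against 0 in WT 1, WT 2 and WT 3. Ms4a4c stood at 76.2 CPM in the members of WT 2, against 38.8 to 44.7 CPM in the other WT-labelled libraries.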

How the results depend on the processing

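The share difference of 4.51 points became 5.33 with Irf8 at 2 UMIs or more and 3.85 without the mitochondrial limit. Both gave an exact permutation p of 0.0286, which was not adjusted over the 2 shares. The share difference ran from 2.83 to 6.34 when 1 library was left out. Members per 100 members plus granule-high cells differed by -3.83 in list A and by -1.63 (without knockout 2) to 16.6 (without knockout 1) when 1 library was left out, and by -0.21 without WT 4. The label count of 10 became 39 with at least 20 cells per library, 19 with at least 5, 22 in list A, 6 in the core, 18 with DESeq2, 19 with Irf8 and the monocyte sum at 5 or more, 0 without barcode list (137 unadjusted in edgeR), 82 without the gene filter, 3 without S100a4/Lgals3-high cells and 34 without the 5% of cells with the most UMIs. Leaving out 1 library gave 4 to 46. With the replicate number as a block, without barcode list and at 5 cells, 3 genes were called. Same-numbered libraries correlated at 0.25, 0.50 and -0.25, and not every library correlated best with its own number. Barcode list was left in these values, with knockout 3 and WT 4, both list B, at 0.80. They therefore cannot tell whether the numbers pair the libraries. A block together with barcode list left no residual degrees of freedom and was not run. Plcb1 turned to 1.48 in the core and 1.49 without S100a4/Lgals3-high cells. Against granule-high cells the count of 2689 became 1655 in list A, 1234 after thinning, 1788 with DESeq2, 490 with no replicate block and 1573 to 2760 without 1 library. Against Mpo-only cells 4417 became 2540 after thinning and 844 with no replicate block. Apart from the core, S100a4/Lgals3-high and thinning settings, the cause was not tested. The named genes kept direction and call in 122 of 171 refits (label), 339 of 345 (granule-high) and 363 of 372 (Mpo-only, where Cybb was the 9 losses). The comparison with MHC II-high cells and its alternatives were not run, since 1 library met the minimum of 10 cells. Member numbers in WT 2 and WT 3 (15 and 8) limit their values.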
